A study of Homo sapiens with 6 samples.

Results

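The 41 collagen genes described here are those whose row of the deposited table carried exactly 1 gene symbol of the collagen alpha chain form, out of 22375 genes named in the same way. A gene with several rows was read from its brightest row, by the mean of the 6 arrays. They fall into 10 fibrillar chains, 6 basement membrane chains of type IV collagen and 25 other chains. COL3A1, COL17A1 and COL26A1 had no row with that symbol alone and are not analysed here. The cells were H1299, an established line from a human non-small cell lung cancer in which p53 is absent and the retinoblastoma protein is present. One group was cultured for 14 days with 500 nM PD 0332991 (palbociclib, an inhibitor of the kinases CDK4 and CDK6) in DMSO, and the other for the same time with the DMSO vehicle alone. Each group had 3 arrays of total RNA, and the comparison asks which transcripts differ between drug and vehicle. These kinases phosphorylate the retinoblastoma protein, but RNA arrays do not measure that step. Whether the arrays within a group stem from separate cultures is not stated in the labels. The p-values then reflect the spread among these 6 samples, which may be technical.

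Collagens are secreted proteins in which 3 alpha chains wind into a triple helix, and the chains of 1 molecule may come from 1 gene or from several. Fibrillar collagens form the tension-bearing fibrils of connective tissue, type IV collagen forms the sheet-like network of basement membranes, and the remaining types decorate fibrils, form fine filaments or span the plasma membrane. In the lung, fibroblasts make most of the fibrillar collagen, while epithelial and endothelial cells rest on basement membranes. Every chain passes through the endoplasmic reticulum, where prolyl and lysyl hydroxylases and chaperones prepare it for export.

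In these epithelial-derived cells the keratin genes KRT8 and KRT18 had mean DMSO levels of 14.03 and 14.06, and the mesenchymal filament gene VIM 15.67, on the deposited log2 scale. The epithelial markers EPCAM, CDH1 and KRT19 stood in DMSO at 5.02, 4.51 and 4.62, near or below the median of each array, which lay between 4.85 and 4.98. Under PD 0332991 KRT8 rose by 0.79 ± 0.08 (SE, n = 3 per group, limma adjusted p = 9.1e-05) and KRT18 had a change of -0.04. Of 10 measured fibroblast markers other than collagens 8 lay at or below the median of the array medians, 4.94, and the averaged level of the list ran from 4.52 to 4.67 in the DMSO arrays and from 4.60 to 4.73 in the PD 0332991 arrays. The fibroblast genes DCN, LUM, PDGFRA and PDGFRB had DMSO levels of 4.44, 3.60, 4.16 and 4.61 and PD 0332991 levels of 4.36, 3.77, 4.29 and 4.66. The 2 called members of the list were brighter, with DMSO levels of 6.43 for FBLN1 and 6.06 for ACTA2. FBLN1 rose by 0.55 (limma adjusted p = 0.00113) and ACTA2 fell by 0.29 (adjusted p = 0.0237). Of 7 endothelial markers 6 lay at or below 4.94, and PECAM1, at 3.53 in DMSO and 3.93 under the drug, rose by 0.40 ± 0.13 (adjusted p = 0.0453). The part of these markers in the collagen results was not tested. In such bulk RNA fewer cells of a kind and less RNA per cell cannot be told apart.

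Most collagen genes were dim in H1299 cells. The mean over the 6 arrays lay at or below 4.94 in 29 of the 41, and only COL12A1 exceeded 8 among them. No fibrillar gene averaged above 5.40 and no basement membrane gene above 5.28. The table holds no detection flags, so a level near or below the array medians is not shown to be above background. A difference into or out of such a level therefore has an uncertain size.

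**Figure D1:**
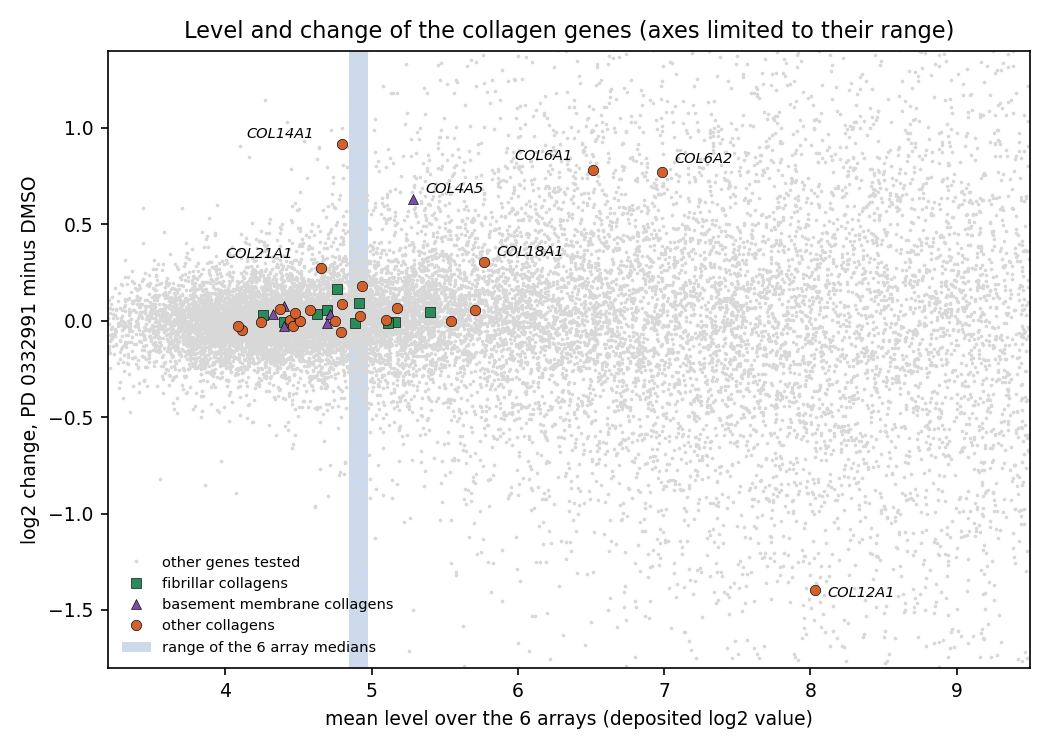
Log2 change (PD 0332991 minus DMSO, vertical axis) against the mean deposited log2 level over the 6 arrays (horizontal axis), with 1 point per gene and both axes limited to the range of the collagens. Most collagens lie close to 0 and near the shaded range of the array medians, 4.85 to 4.98, with COL12A1 far below 0 and COL6A1, COL6A2, COL14A1 and COL4A5 above it.

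PD 0332991 changed 7 of the 41 collagen genes. COL6A1, COL6A2, COL14A1, COL4A5, COL18A1 and COL21A1 rose, and COL12A1 fell. A gene was called at a Benjamini-Hochberg adjusted p under 0.05, over all 22375 genes, by limma. At this threshold 17.1% of the collagens were called against 38.1% of all genes. Of all genes 19.6% were called higher and 18.5% lower. The share of called genes depended on their level: 56.8% of genes above 4.94 were called and 4.83% of those at or below it. With a change of at least 1 required as well, COL12A1 was the 1 collagen called, beside 9.95% of all genes. Among the collagens 5 of 12 above that level and 2 of 29 at or below it were called. By class, 0 of 10 fibrillar, 1 of 6 basement membrane and 6 of 25 other collagens were called. The median change was 0.03 in the fibrillar class, 0.03 in the basement membrane class and 0.02 in the others, beside a median of 0.00 over all genes, and no test was made between the classes.

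**Figure D2:**
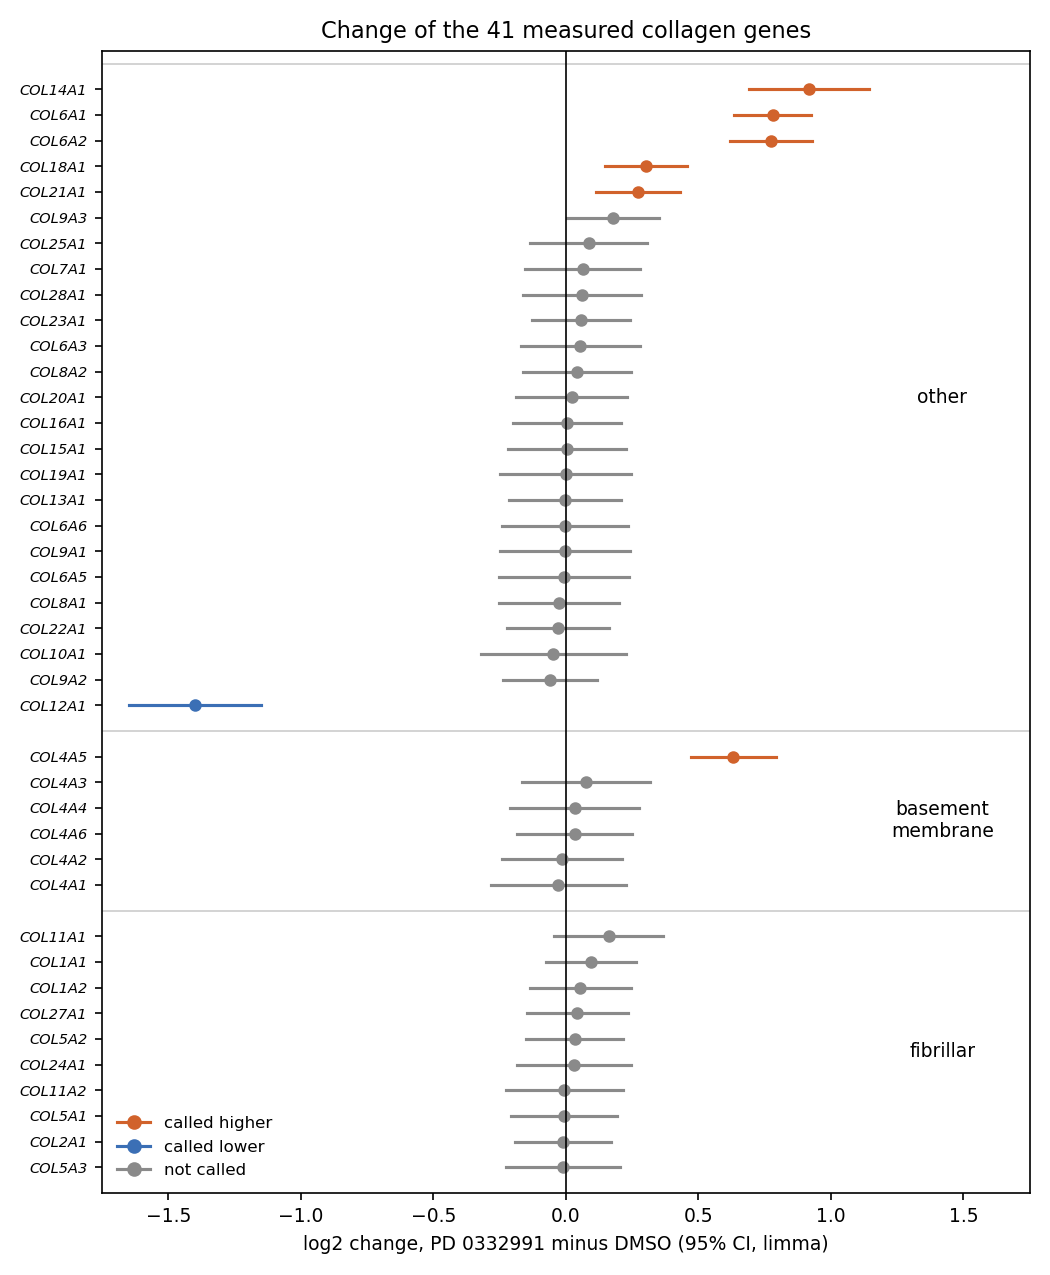
Log2 change (PD 0332991 minus DMSO) with its 95% confidence interval from limma for each of the 41 collagens, grouped by class and sorted within it. The 10 fibrillar chains are all uncalled, COL4A5 is the called basement membrane chain, and the other collagens run from COL12A1 at -1.40 to COL14A1 at 0.92.

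COL12A1, which encodes a collagen that sits on the surface of fibrils and links them to their surroundings, was the 1 collagen that fell. Its level was 8.89, 8.78 and 8.53 in the DMSO arrays and 7.37, 7.42 and 7.21 in the PD 0332991 arrays. Every DMSO array lay more than 1 unit above every PD 0332991 array. The change was -1.40 ± 0.11 (SE, n = 3 per group, limma adjusted p = 1.83e-05), the largest in size among the 41.

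Of the other 9 measured fibril-associated collagens, COL14A1 and COL21A1 rose and 7 did not pass. COL14A1, a relative of COL12A1 found along fibrils in skin and tendon, stood at 4.17, 4.43 and 4.42 in DMSO and at 5.34, 5.31 and 5.13 under PD 0332991. The groups did not overlap, and the drug arrays were the ones above the array medians. COL14A1 rose by 0.92 ± 0.10 (SE, n = 3 per group, adjusted p = 0.000124). COL21A1 had levels of 4.49, 4.50 and 4.57 in DMSO and of 4.82, 4.73 and 4.82 under the drug, so that the groups did not overlap but all 6 values lay below every array median. COL21A1 rose by 0.27 ± 0.07 (adjusted p = 0.0133), and this call was lost without DMSO replicate 2 (0.0568), without PD 0332991 replicate 3 (0.0548) and when all 65535 rows of the table were tested (0.0680). The 2 genes that rose thus had DMSO levels below the array medians, while COL12A1 fell from a level well above them.

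COL9A3, a chain of the fibril-associated type IX collagen of cartilage, had levels of 4.77, 4.83 and 4.93 in DMSO and of 5.08, 4.95 and 5.05 under the drug. The groups did not overlap, which was also so for 47.5% of all genes and for 8 of the 41 collagens, but its change of 0.18 ± 0.07 did not pass (adjusted p = 0.103). Its partner chain genes COL9A1 and COL9A2 had changes of 0.00 and -0.06. The uncalled COL16A1, of another fibril-associated type, had a mean level above 4.94 in both groups and a change of 0.00.

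Genes for the chains of type VI collagen, which forms beaded filaments around cells from 1 chain each of COL6A1, COL6A2 and usually COL6A3, were split: COL6A1 and COL6A2 rose and COL6A3 did not pass. COL6A1 stood at 6.13, 6.15 and 6.10 in DMSO and at 6.89, 6.94 and 6.88 under PD 0332991. COL6A2 stood at 6.64, 6.56 and 6.59 in DMSO and at 7.40, 7.41 and 7.31 under PD 0332991. In both genes the 3 arrays of a group lay within 0.10 of each other and the groups were well apart. COL6A1 rose by 0.78 ± 0.06 (SE, n = 3 per group, adjusted p = 2.43e-05) and COL6A2 by 0.77 ± 0.07 (adjusted p = 3.56e-05). COL6A3 stood at 4.42, 4.53 and 4.70 in DMSO and at 4.73, 4.50 and 4.59 under the drug, with overlapping groups below every array median. Its change was 0.06 with a 95% confidence interval from -0.17 to 0.28, and the genes for alternative partners COL6A5 and COL6A6 had changes of -0.01 and 0.00 at similarly dim levels. Within arrays the change of COL6A1 exceeded that of COL6A3 by 0.73 and that of COL6A2 exceeded it by 0.72. By an exact permutation test over the 6 arrays each of these had a two-sided p of 0.1, the smallest that 3 arrays against 3 allow. The changes of COL6A1 and COL6A2 differed by 0.01 (exact p = 0.8). In all 8 such pairs of partner chains were tested (lowest Benjamini-Hochberg adjusted p = 0.16). The floor of 0.1 lies above the threshold used for calls, so no pair could have passed, with or without adjustment. This exact test therefore cannot decide whether partner chains changed unequally. Most of the pairs also include COL6A1, COL6A2 or COL4A5, which were called in these same data.

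The start regions of COL6A2 and COL12A1 are shown because these genes lay above the array medians in every array and moved in opposite directions. COL6A1 and COL18A1 also lay above the medians in every array and rose, but COL6A1 had no window. Both regions shown come from RefSeq on GRCh38.p14, 5′ to 3′ on the gene's own strand, from 250 bases before to 50 bases after the annotated start. COL6A2 lies at chr21:46097862-46098161 on the plus strand and COL12A1 at chr6:75206004-75206303 on the minus strand. Capitals mark matches on either strand to 5 motifs: the GC box GGGCGG, the TATA box TATAAA, the CCAAT box CCAAT, the AP-1 motif TGANTCA and the E2F words TTTGGCGC, TTTCGCGC and TTTCCCGC. No word contains another.
COL6A2: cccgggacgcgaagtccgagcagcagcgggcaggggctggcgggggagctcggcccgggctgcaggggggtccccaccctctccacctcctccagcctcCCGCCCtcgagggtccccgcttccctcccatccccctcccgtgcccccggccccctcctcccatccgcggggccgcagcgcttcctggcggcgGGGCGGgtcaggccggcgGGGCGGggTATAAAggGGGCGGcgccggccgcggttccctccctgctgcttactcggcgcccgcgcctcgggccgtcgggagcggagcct
COL12A1: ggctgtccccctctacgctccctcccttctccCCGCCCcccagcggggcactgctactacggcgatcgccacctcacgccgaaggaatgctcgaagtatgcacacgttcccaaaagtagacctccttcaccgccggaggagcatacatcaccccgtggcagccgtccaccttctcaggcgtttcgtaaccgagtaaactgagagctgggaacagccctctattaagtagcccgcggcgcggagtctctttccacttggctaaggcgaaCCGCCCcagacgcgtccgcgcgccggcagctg
The COL6A2 window held 4 GC boxes and a TATA box that begins 32 bases before the start. The COL12A1 window held 2 GC boxes and no TATA box. Of all 35116 windows of this length 45.0% held a GC box, 11.5% a TATA box, 34.6% a CCAAT box, 7.71% an AP-1 motif and 2.74% an E2F word. Neither printed window held a CCAAT box, an AP-1 motif or an E2F word. These matches describe the letters of the windows and say nothing about what binds there.

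Of the type IV collagen genes of basement membranes COL4A5 rose and the other 5 did not pass. COL4A5 encodes a chain that joins COL4A3 and COL4A4 products in specialised basement membranes, or COL4A6 products in others. Its level was 4.88, 4.98 and 5.03 in DMSO and 5.60, 5.61 and 5.58 under PD 0332991. The drug arrays lay close together and above all DMSO arrays, which were near the array medians. COL4A5 rose by 0.63 ± 0.07 (SE, n = 3 per group, adjusted p = 0.000147). COL4A3, COL4A4 and COL4A6 had changes of 0.08, 0.03 and 0.03 and mean levels below the array medians in both groups. The change of COL4A5 exceeded theirs by 0.56, 0.60 and 0.60 within arrays (exact permutation p = 0.1 for each). As no smaller p was possible, this test cannot decide whether these chains changed unequally. COL4A1 and COL4A2, the chain genes of the common type IV collagen of most basement membranes, had levels of 4.42 and 4.70 in DMSO and of 4.39 and 4.69 under the drug. Their changes were -0.03 and -0.01. Over the 5 uncalled chains the 95% confidence intervals reached from -0.28 to 0.32.

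COL4A5 and COL4A6 are transcribed away from each other, and their start regions are shown because they overlap. Of the pair only COL4A5 was called. The row of COL4A6 lay below the array medians, so an unequal change of the pair is not shown. On GRCh38.p14 the RefSeq window of COL4A5 is chrX:108439588-108439887 on the plus strand, and that of COL4A6 is chrX:108439409-108439708 on the minus strand. COL4A6 has 2 windows in the RefSeq table, and the 1 nearer to COL4A5 is shown. The annotated starts lie 380 bases apart and the windows share 121 bases. Capitals mark the same 5 motifs.
COL4A5: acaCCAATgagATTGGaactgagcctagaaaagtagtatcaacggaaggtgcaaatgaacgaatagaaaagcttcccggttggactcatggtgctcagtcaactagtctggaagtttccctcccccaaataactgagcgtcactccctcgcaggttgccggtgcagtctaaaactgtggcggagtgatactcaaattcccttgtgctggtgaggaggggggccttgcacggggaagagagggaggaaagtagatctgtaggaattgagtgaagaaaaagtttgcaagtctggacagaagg
COL4A6: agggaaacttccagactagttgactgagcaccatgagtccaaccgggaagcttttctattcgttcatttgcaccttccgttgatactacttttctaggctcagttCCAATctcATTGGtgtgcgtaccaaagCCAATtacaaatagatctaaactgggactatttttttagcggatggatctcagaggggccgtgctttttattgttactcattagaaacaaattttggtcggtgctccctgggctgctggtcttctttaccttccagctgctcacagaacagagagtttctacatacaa
The COL4A5 window held 2 CCAAT boxes, in opposite orientation and within the shared bases. The COL4A6 window held the same 2 and a further 1. Neither window held a GC box or a TATA box, and the bases were 49.3% G or C in the COL4A5 window and 43.7% in the COL4A6 window, beside 79.3% for COL6A2, 63.3% for COL12A1 and a median of 58.7% over all windows.

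COL18A1 and COL15A1 encode the multiplexins of basement membrane zones, and a fragment of the COL18A1 product is the angiogenesis inhibitor endostatin. COL18A1 had levels of 5.55, 5.63 and 5.67 in DMSO and of 5.93, 5.90 and 5.93 under PD 0332991, with no overlap. COL18A1 rose by 0.30 ± 0.07 (SE, n = 3 per group, adjusted p = 0.00701), the smallest called change but that of COL21A1. COL15A1 had a change of 0.00 at a mean level of 4.44 in both groups. COL7A1, whose product forms the anchoring fibrils under epithelia, stood at 5.14 in DMSO and 5.21 under the drug with a change of 0.06 that did not pass (adjusted p = 0.693). Counting COL7A1, COL15A1 and COL18A1 with the basement membrane class moved its median change little.

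**Figure D3:**
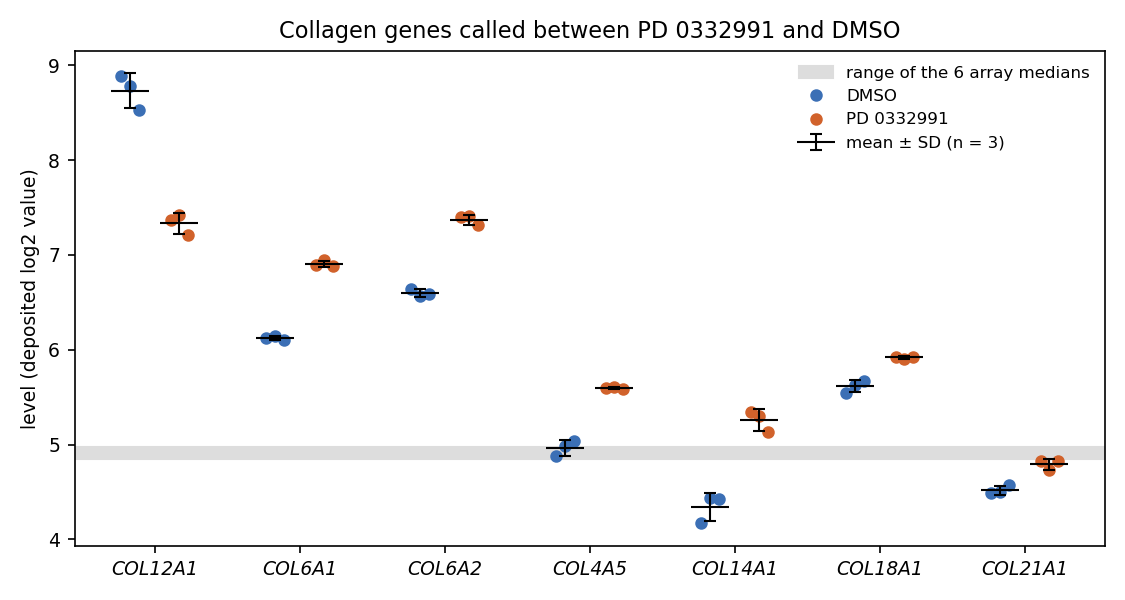
Deposited log2 level (vertical axis) of the 7 called collagens in each array, with points for arrays, the horizontal bar for the mean and the whisker for the SD (n = 3). The 7 genes are shown because they were called in these same arrays. Their DMSO and PD 0332991 points do not overlap, which was also so for 47.5% of all genes. COL4A5, COL14A1 and COL21A1 start from DMSO levels near or below the shaded array medians.

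None of the 10 measured fibrillar collagen genes passed, by limma, and none had an unadjusted p under 0.05. COL1A1 and COL1A2, the chains of type I collagen that dominates connective tissue, stood near or below the array medians in every array. COL1A1 had levels of 4.81, 4.90 and 4.89 in DMSO and of 4.98, 4.87 and 5.03 under the drug. COL1A2 had levels of 4.57, 4.71 and 4.71 in DMSO and of 4.81, 4.60 and 4.75 under the drug, so the groups overlapped in both genes. Their changes were 0.09 ± 0.07 (SE, n = 3 per group) and 0.05 ± 0.08, and they differed from each other by 0.04 (exact p = 0.4). COL2A1, COL11A2 and COL27A1, the fibrillar genes with mean levels above 4.94, had changes of -0.01, -0.01 and 0.04. A second row for COL27A1, with a mean level of 4.49, had a change of -0.07. The type V genes COL5A1, COL5A2 and COL5A3 had changes of -0.01, 0.03 and -0.01, and COL24A1 had 0.03. COL11A1 had the highest fibrillar change at 0.16 ± 0.09 (adjusted p = 0.214). The intervals of the 10 genes reached from -0.23 to 0.37. These intervals and the dim levels do not show that the fibrillar collagens lacked a response.

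Among the remaining collagens the membrane-spanning COL13A1 and COL23A1 lay above the array medians, with mean DMSO levels of 5.55 and 5.68. Their changes were 0.00 and 0.06 and did not pass, nor did that of the dim COL25A1. The short-chain network genes COL8A1, COL8A2 and COL10A1, known from endothelial and growth plate matrix, had changes of -0.03, 0.04 and -0.05 at levels below the array medians. COL28A1 had a change of 0.06.

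Most uncalled collagens were lowest in the same arrays, which is not shown to be particular to collagens. In 32 of the 34 the lowest DMSO value was that of replicate 1, and in all 34 the lowest PD 0332991 value was that of replicate 2. The medians of all 65535 rows were lowest in the same 2 arrays of their groups, at 4.85 and 4.86. So were the averaged levels of the fibroblast, endothelial and blood marker lists. The epithelial list shared only the PD 0332991 array, and the mesenchymal list shared neither. The share of all genes that were lowest in both arrays was not counted. Centring the arrays on their medians left all 7 calls in place. Leaving out both arrays did so too.

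Many genes that modify, fold and export collagen chains rose. Of 36 measured synthesis and processing genes 21 rose, 4 fell and 11 did not pass, a called share of 69.4%, with a median change of 0.48. Of these genes 31 of 36 had a mean level above 4.94, and of those 24 were called, beside the 56.8% of all genes at such levels.

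Prolyl hydroxylation, which gives the helix its stability, had 8 of 9 measured genes higher and none lower, beside 19.6% of all genes higher. Of the 9 genes 8 lay above 4.94, where 56.8% of all genes were called in either direction. P4HA1, a catalytic subunit of prolyl 4-hydroxylase, had levels of 10.99, 11.10 and 11.06 in DMSO and of 12.44, 12.41 and 12.21 under PD 0332991. The groups lay more than 1 unit apart, and P4HA1 rose by 1.31 ± 0.08 (SE, n = 3 per group, adjusted p = 6.58e-06). The alternative subunit gene P4HA2 rose by 1.08 ± 0.06, and P4HB, for the shared beta subunit, rose by 0.46 ± 0.07. The prolyl 3-hydroxylase genes P3H1, P3H2 and P3H3 rose by 0.80, 0.85 and 0.35, and the complex members P3H4 and CRTAP by 0.52 and 0.63. The dim P4HA3 had a change of 0.03. P4HA1 and P4HA2 were named after their values were seen.

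The lysyl hydroxylase genes went different ways. PLOD1, whose product hydroxylates helical lysines, stood at 9.09, 8.91 and 8.88 in DMSO and at 10.66, 10.79 and 10.58 under PD 0332991. PLOD1 rose by 1.72 ± 0.09 (SE, n = 3 per group, adjusted p = 2.30e-06). PLOD2, which acts on the lysines of the telopeptides used for crosslinks, stood at 10.56, 10.54 and 10.38 in DMSO and at 9.21, 9.32 and 9.19 under the drug. PLOD2 fell by 1.25 ± 0.08 (adjusted p = 6.13e-06), so that PLOD1 was higher and PLOD2 lower in every drug array than in any DMSO array. PLOD3 had a change of -0.05, and the collagen galactosyltransferase gene COLGALT1 fell by 0.47 ± 0.10 (adjusted p = 0.00628).

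Of 10 measured genes for folding and export 8 rose and none fell, beside 19.6% of all genes higher. All 10 lay above 4.94, where 56.8% of all genes were called in either direction. FKBP10, a prolyl isomerase chaperone of collagen in the endoplasmic reticulum, had the highest change of the whole list. Its levels were 10.92, 10.66 and 10.76 in DMSO and 12.95, 12.98 and 12.85 under PD 0332991, a rise of 2.14 ± 0.09 (SE, n = 3 per group, adjusted p = 6.68e-07). FKBP14, of the same family, rose by 1.88 ± 0.10, and SEC24D, a coat protein gene of export vesicles, rose by 1.84 ± 0.09. SERPINH1, the collagen-specific chaperone HSP47, had levels of 6.80, 6.50 and 6.71 in DMSO and of 7.54, 7.86 and 7.53 under the drug and rose by 0.97 ± 0.12. The export receptor gene MIA3 (TANGO1) rose by 0.90 ± 0.10, SEC23A by 0.87 ± 0.08 and the isomerase gene PPIB by 0.50 ± 0.06. MIA2, which acts with MIA3, rose by 0.32 ± 0.07 in its brighter row (adjusted p = 0.00777). Its other row had a change of -0.13, and with the mean of both rows MIA2 was not called (0.09 ± 0.08, adjusted p = 0.451), which left 20 synthesis and processing genes higher. TMEM38B and KLHL12 did not pass, at -0.13 and 0.13.

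Outside the cell, propeptide cleavage and crosslinking were mixed. BMP1, the protease that removes the C-terminal propeptide of fibrillar collagens, stood at 6.42, 6.52 and 6.47 in DMSO and at 8.03, 8.03 and 7.98 under PD 0332991, and rose by 1.54 ± 0.07 (SE, n = 3 per group, adjusted p = 8.18e-07). ADAMTS3, a protease of N-terminal propeptides, rose by 1.02 ± 0.13 and TLL1, a relative of BMP1, by 0.63 ± 0.09. PCOLCE2, an enhancer of C-propeptide cleavage, fell by 0.83 ± 0.06. Of the lysyl oxidase genes, which crosslink collagen and elastin, LOXL1 had levels of 8.70, 8.47 and 8.07 in DMSO and of 10.50, 10.53 and 10.14 under the drug. LOXL1 rose by 1.98 ± 0.17 (adjusted p = 3.53e-05). LOXL2, which stood at 9.76, 9.65 and 9.51 in DMSO and at 8.69, 8.77 and 8.78 under the drug, fell by 0.89 ± 0.08 (adjusted p = 5.26e-05). Each group of arrays was thus apart in both genes, in opposite directions. LOX, LOXL3 and LOXL4 did not pass, each with a change of 0.05.

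**Figure D4:**
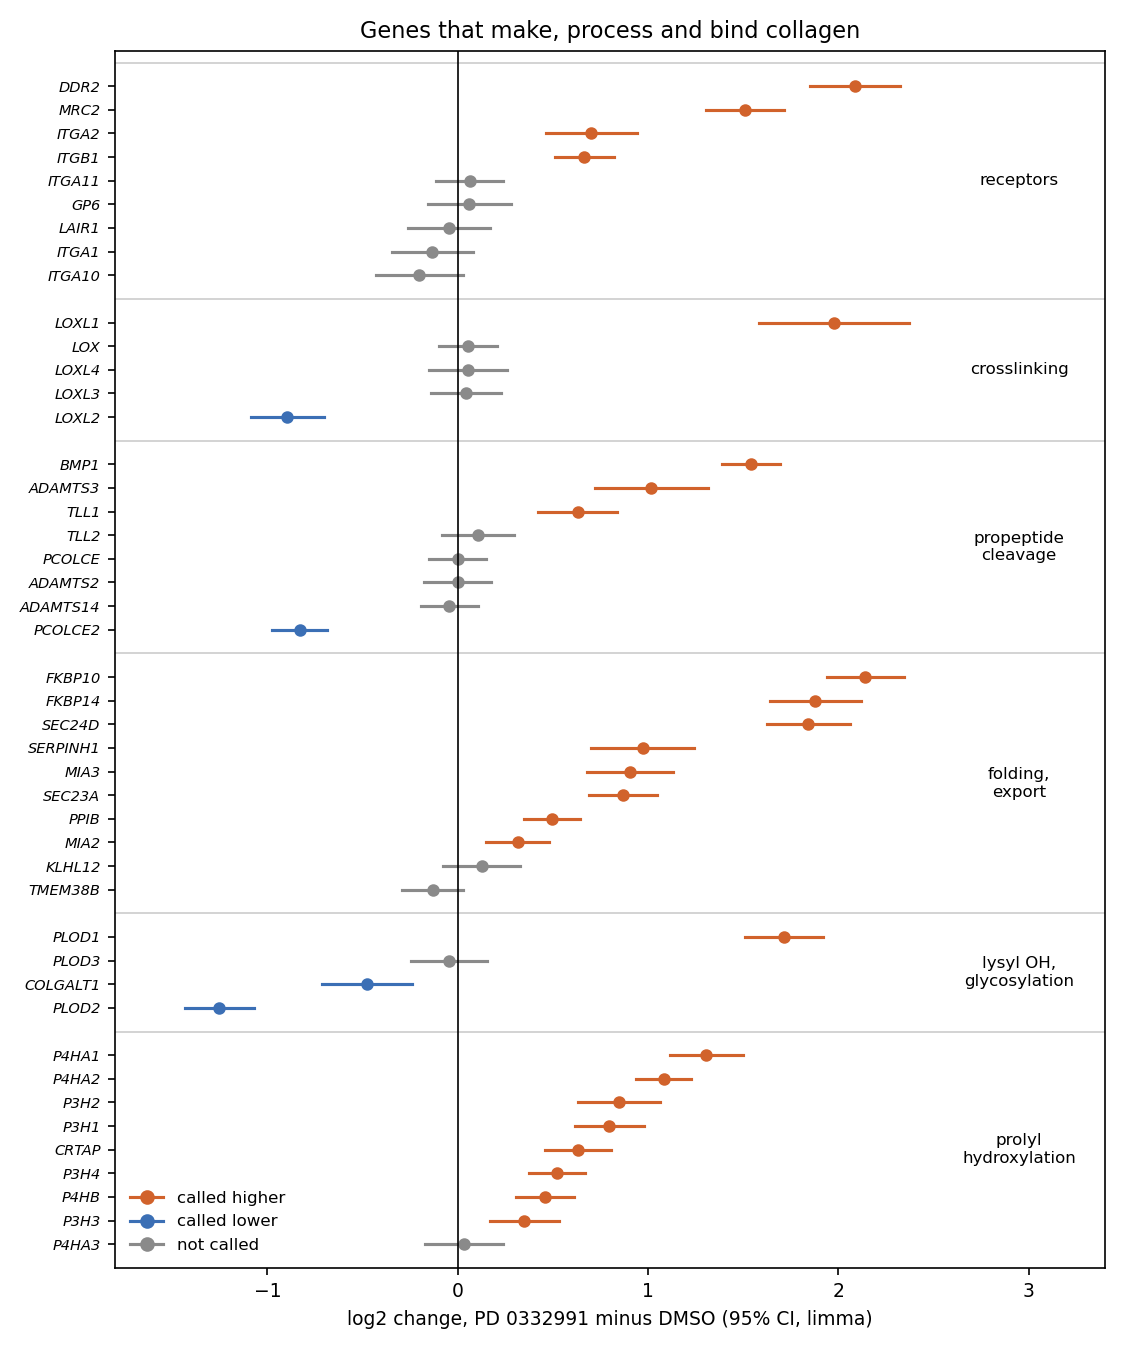
Log2 change (PD 0332991 minus DMSO) with its 95% confidence interval from limma for the 36 measured synthesis and processing genes, by step, and the 9 measured receptor genes. The intervals of the prolyl hydroxylation and the folding and export genes lie to the right of 0 but for those of P4HA3, KLHL12 and TMEM38B, while PLOD1 and PLOD2, and LOXL1 and LOXL2, lie on opposite sides.

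Of 9 measured collagen receptor genes 4 rose and none fell, a called share of 44.4% beside 38.1% of all genes. DDR2, a receptor tyrosine kinase that binds fibrillar collagen, stood at 5.11, 5.19 and 5.26 in DMSO and at 7.06, 7.41 and 7.35 under PD 0332991. Every drug array was above every DMSO array, and DDR2 rose by 2.09 ± 0.10 (SE, n = 3 per group, adjusted p = 1.72e-06) from a level just above the array medians. MRC2, an endocytic receptor that takes up collagen fragments, rose by 1.51 ± 0.09 (adjusted p = 4.41e-06). The collagen-binding integrin gene ITGA2 rose by 0.70 ± 0.10 (adjusted p = 0.000770). Its partner ITGB1, shared by many integrins, rose by 0.66 ± 0.07 in its brightest row (adjusted p = 8.75e-05). The dimmer ITGB1 rows had changes of -0.19 and -0.29, and with the mean of its rows ITGB1 was not called (adjusted p = 0.681). ITGA1, ITGA10 and ITGA11 did not pass, at -0.13, -0.20 and 0.06. DDR1, the discoidin receptor of epithelial cells, had no row with that symbol alone and is not analysed here.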

How the data were processed

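Total RNA of 6 H1299 samples was measured on Affymetrix arrays, 3 per group. The authors deposited log2 values, as read from their range of 1.87 to 19.9, for 65535 transcript clusters. Per the submitters' processing notes they came from Affymetrix Expression Console. The labels and files used here state neither its version, background correction and normalization nor the genome build. The deposited scale reaches beyond plain scanner brightness, so changes are differences on that scale and uncertain as RNA ratios. Precision is limited by having 3 arrays a group, and the median SE of a change was 0.0875.

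Of the clusters 22685 had 1 gene symbol in the platform annotation, 1385 had several and 41465 were not listed. The difference PD 0332991 minus DMSO was fitted per gene by limma 3.58.1 under R 4.3.3 (lmFit, eBayes), without further scaling or filter, two-sided, with 4 residual degrees of freedom and Benjamini-Hochberg adjustment over 22375 genes. The fit was also run on simulated data with independent noise for each gene and array. That setting lacks shifts shared by the genes of an array, and no result here rests on it.

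The members, the lists of synthesis, receptor and marker genes, and the alternatives were chosen with earlier results of these data known. Named genes were every called collagen, every uncalled collagen with a mean level above 4.94, up to 6 called synthesis and 3 called receptor genes per direction with the largest change, 10 genes fixed by name, and partner chains. Others were named after their values were seen. Start regions came from RefSeq (GRCh38.p14), which held a window for 30 of the 41 collagens.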

Additional observations from a re-analysis of the deposited data

How the results depend on the processing

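The alternatives were centring, quantile and cyclic loess scaling, leaving out dim genes, averaging a gene's rows, testing all rows, trend with robust fitting, array weights, a replicate block, requiring a change of at least 1, and runs without single arrays. Apart from the required change of 1, the 6 called collagens other than COL21A1 kept their calls under each setting that tested them. COL21A1 lost its call in the settings given with its values. Without single arrays 5 to 6 collagens were called higher and 1 lower. COL9A3 was also called after quantile normalization and with array weights. With genes below the median level left out, 3 collagens were tested, and 2 were called higher and 1 lower. The median change of the other collagens was then 0.77, over those 3 genes. With a change of at least 1 required, 0 collagens were called higher and 1 lower, 9 synthesis and processing genes higher and 1 lower, 2 receptor genes higher, and 1011 genes in all higher and 1215 lower. After quantile normalization 1 receptor gene was called lower (ITGA10, adjusted p = 0.0475). The labels number the replicates alike in both groups, but the deviations of same-numbered arrays from their group means correlated with r of -0.33, -0.15 and 0.10, so the numbers were not taken as pairs. With the replicate block 7 collagens were called, all 7 of them shared with the fit without it. The median change of all genes was 0.00 as deposited, -0.02 after centring, -0.01 after cyclic loess and 0.00 after quantile scaling. With a gene's rows averaged, 20 synthesis and 3 receptor genes were called higher. Detection flags and scan dates were not used here.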

Other observations

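Some rows of the table carried names next to those of collagens. COL6A4P1, a pseudogene of the type VI family, had levels of 5.38, 5.30 and 5.26 in the DMSO arrays and of 5.57, 5.69 and 6.01 in the PD 0332991 arrays. The groups did not overlap and it rose by 0.44 ± 0.11 (SE, n = 3 per group, limma adjusted p = 0.0152). The related pseudogene COL6A4P2 had a change of -0.07. The antisense genes COL18A1-AS1, COL18A1-AS2, COL4A2-AS1, COL4A2-AS2 and COL5A1-AS1 had changes of 0.00, 0.02, -0.08, 0.22 and -0.19, and none of them passed (adjusted p from 0.183 to 0.995). These genes were looked up after the values of the collagens were seen.

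Markers of mesenchymal cells moved in different directions. VIM, for the filament protein vimentin, fell by 0.57 ± 0.07 (SE, n = 3 per group, adjusted p = 0.000296), while the transcription factor gene ZEB1 rose by 0.40 ± 0.08 and the N-cadherin gene CDH2 by 0.26 ± 0.09. Among the fibroblast markers FBLN1, a matrix gene, rose by 0.55 ± 0.09 and ACTA2, for smooth muscle actin, fell by 0.29 ± 0.08. The part of these differences in the collagen results was not tested.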
